A study of Danio rerio with 40 samples.

Results

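The Hox genes of the adult zebrafish brain and eye were examined in fish of the wh5 line, a knockout of cyp1b1, and in wild-type (WT) fish. Members were all genes whose symbol begins with hox, a cluster letter from a to d and a number. They came to 25 of the 20454 genes listed in the authors' deposited tables, 24 in the brain table and 2 in the eye table, with hoxb8b in both. RNA was sequenced from brains of wh5 females, wh5 males, WT females and WT males, and from whole eyes of the same 4 kinds of adult fish, with 5 samples in each group. Each organ therefore had 10 wh5 and 10 WT samples, 40 samples in all. The sources used here do not give the exact age, the strain of the WT fish or how the wh5 allele was made.

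Hox genes encode homeodomain transcription factors that lie in clusters on several chromosomes. Their order along a cluster follows the order of their anterior expression limits along the body, from the hindbrain to the tail, and genes at the same place in different clusters form a numbered paralogue group. In the vertebrate central nervous system, groups 1 to 4 mark the segments of the hindbrain and later groups mark the caudal hindbrain and successive levels of the spinal cord. The forebrain, the midbrain and the neural retina develop in front of the Hox-expressing territory. Retinoic acid sets the expression limits of the early groups in the embryo, and Pbx and Meis proteins bind DNA together with Hox proteins.

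The deposited tables hold, for each gene, the mean of normalised counts over both genotypes (base mean), a log2 fold change of wh5 over WT with its standard error (SE), and a p-value. They hold no value of a single sample, so the level in each sample, the depth of each library and the sexes could not be examined. Where fish differ, an SE cannot show whether 1 brain or many stood apart. Organs were taken from the sample titles, which in all 40 samples go against the organ of the source field. Rod and cone genes had a median base mean of 71.6 in the brain table and 24081 in the eye table. For the targeted transcript, cyp1b1, the authors' deposited tables give log2 fold changes of -0.17 in brain (SE 0.14, adjusted p = 0.818) and 0.54 in eye (SE 0.14, adjusted p = 0.016). Its level does not check the genotype labels, and directions were read from the names of the tables. The labels do not say whether samples of a group came from separate fish, and if they did not, p-values measure the spread between samples only.

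Hox genes of the hindbrain and of the anterior trunk were listed in brain, and those of the posterior trunk were not. Of 49 protein-coding Hox genes in the RefSeq gene table (assembly GRCz12tu), in 7 clusters, the brain table listed 12 of 14 in paralogue groups 1 to 4 and 12 of 12 in groups 5 to 8. It listed 0 of 23 in groups 9 to 13. The members of the early groups without a brain value were hoxb1a and hoxa4a, which are not analysed here. The ba cluster gave 7 of its 11 genes, the ca cluster 6 of 11 and the bb cluster 4 of 4. The aa cluster gave 3 of 7, the da cluster 2 of 7, the ab cluster 1 of 5 and the cb cluster 1 of 4. The lowest base mean of any listed gene was 1.96 in brain and 1.98 in eye, and no source used here states by which rule low genes were left out.

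**Figure D1:**
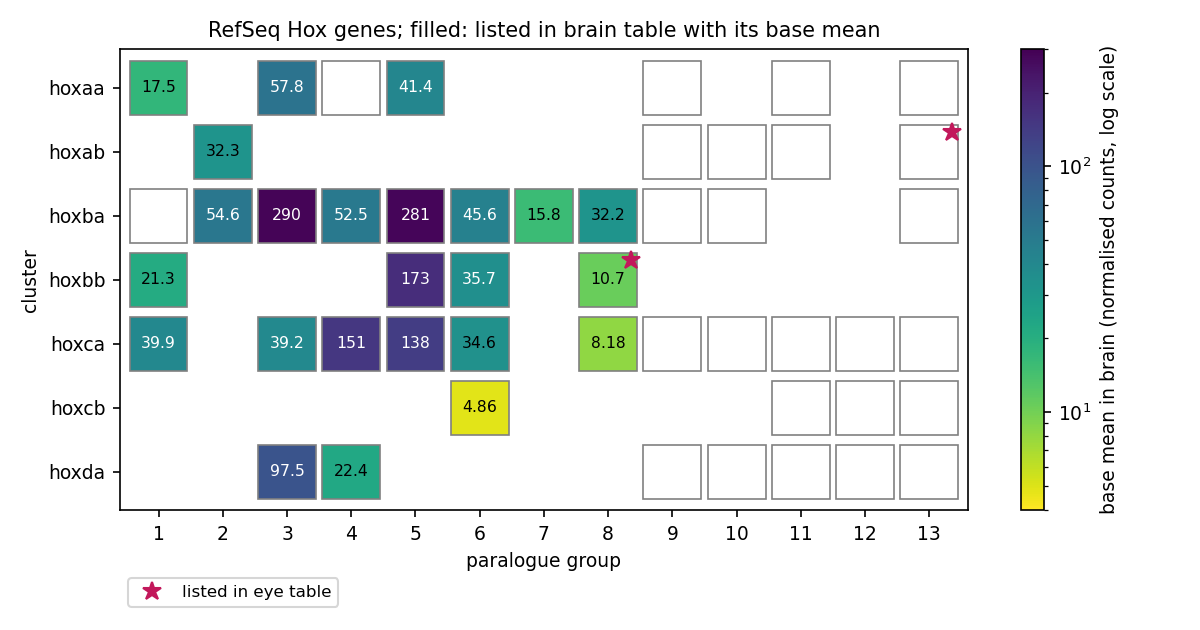
Protein-coding Hox genes of the RefSeq gene table by cluster (rows) and paralogue group (columns). Filled squares are genes in the brain table with the base mean in normalised counts (colour on a log scale, not divided by gene length), empty squares have no brain value, and stars mark the eye table: filling stops after group 8, and the stars stand at hoxb8b and hoxa13b.

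Base means, together with the spread between samples, bear on how precisely each gene was measured. Since no transcript lengths were at hand, base means are not compared as levels between genes. The 10 Hox genes with the most reads in brain came from groups 2 to 6. The authors' deposited table gives base means of 289.5 for hoxb3a, 281 for hoxb5a, 173 for hoxb5b, 151 for hoxc4a and 138 for hoxc5a. The next values in the authors' deposited table were 97.5 for hoxd3a, 57.8 for hoxa3a, 54.6 for hoxb2a, 52.5 for hoxb4a and 45.6 for hoxb6a. The other 14 genes lay between 4.86 (hoxc6b) and 41.4 (hoxa5a) in the authors' deposited table.

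The genotype comparison asked whether loss of Cyp1b1, an enzyme that can act on retinoids, went with a different level of Hox transcripts. In brain no Hox gene passed: of 24, 0 were called at an adjusted p below 0.05 in what the authors deposited, against 0.736% of all 19300 genes. At an unadjusted p below 0.05 the count was also 0 of 24, against 8.62% of all genes. Adjusted p ran from 0.738 for hoxb8b to 0.998 for hoxc1a. The signs leaned one way: 19 of 24 log2 fold changes were above 0, against 49.5% of all genes, with a median of 0.36 against -0.0014 over all genes. Over the 8942 genes whose base mean lay in the range of the Hox genes the median was 0.0038 and 50.8% were above 0. Hox genes share the same samples and territories, so their signs are not independent of each other. In whole brains, a different number of Hox-expressing cells and a different amount of RNA per cell cannot be told apart.

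**Figure D2:**
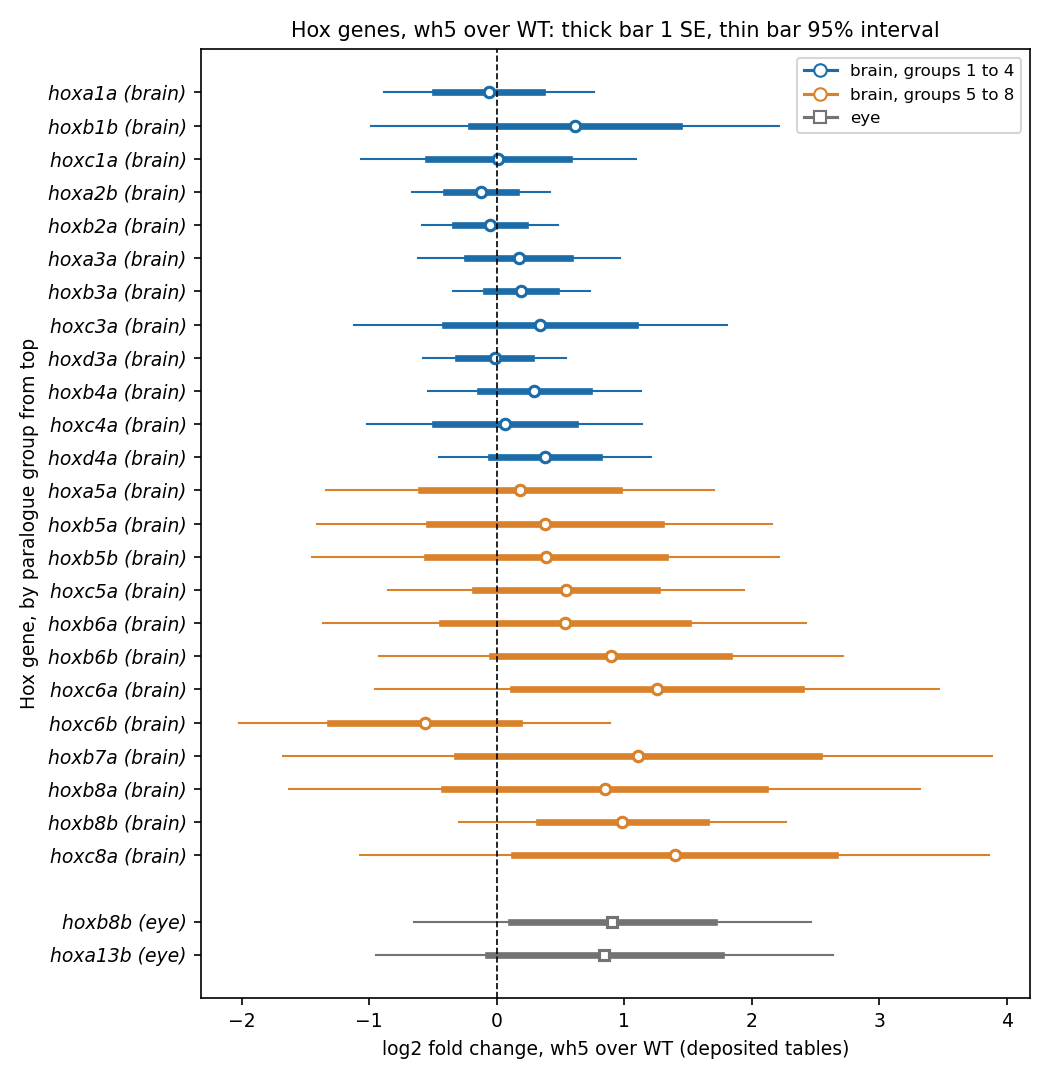
Log2 fold change of wh5 over WT (horizontal axis) for the 24 Hox genes of the brain table and the 2 of the eye table, ordered from paralogue group 1 at the top. Points are the deposited values, thick bars 1 SE and thin bars 95% intervals: every interval crosses 0, and the median point lies at 0.70 in groups 5 to 8 and at 0.12 in groups 1 to 4, with hoxc6b the leftmost.

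The group 2 genes, which pattern the front of the hindbrain, had log2 fold changes close to 0 and SEs among the narrowest of the Hox genes. The authors' deposited table places hoxa2b, which takes part in giving the second pharyngeal arch its identity and is expressed in the anterior hindbrain, at -0.12 (SE 0.28, adjusted p = 0.954). Its group partner hoxb2a was placed by the authors' deposited table at -0.05 (SE 0.27). The 95% intervals from these SEs are folds of 0.631 to 1.34 for hoxa2b and 0.666 to 1.4 for hoxb2a. In group 1, whose members pattern the middle of the hindbrain in the embryo, the authors' deposited table places hoxa1a at -0.06 (SE 0.42) and hoxc1a at 0.014 (SE 0.55). For the third member, hoxb1b, the authors' deposited table gives 0.61 (SE 0.82), a wider interval of 0.506 to 4.63.

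Group 3 genes, which mark the caudal rhombomeres, stayed within a similar range. The authors' deposited table gives 0.19 (SE 0.28) for hoxb3a, 0.17 (SE 0.40) for hoxa3a and -0.014 (SE 0.29) for hoxd3a. For hoxb3a, the Hox gene with the most reads, the interval of the fold was 0.787 to 1.66. The fourth member, hoxc3a, had 0.34 (SE 0.75) in the authors' deposited table. Group 4 genes, whose anterior limits lie in the last segments of the hindbrain, were at 0.30 (SE 0.43) for hoxb4a, 0.06 (SE 0.55) for hoxc4a and 0.38 (SE 0.42) for hoxd4a in the authors' deposited table. Over groups 1 to 4 together, 8 of 12 values were above 0 and the median was 0.12.

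Groups 5 to 8, which mark the caudal end of the hindbrain and the spinal cord behind it, had a higher median log2 fold change and mostly wider errors. Here 11 of 12 values were above 0 and the median was 0.70, with none called. In group 5 the authors' deposited table gives 0.38 (SE 0.91) for hoxb5a and 0.38 (SE 0.93) for its duplicate hoxb5b. It gives 0.54 (SE 0.71) for hoxc5a and 0.18 (SE 0.78) for hoxa5a. The 95% interval for hoxb5a ran from 0.378 to 4.47-fold, although its base mean was 281.

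Further back most point estimates were larger still. In group 6, hoxc6a had the largest value among Hox genes whose base mean reached 10. The authors' deposited table gives it 1.26 (SE 1.13, adjusted p = 0.845), an interval of 0.516 to 11.1-fold. In the authors' deposited table hoxb6b was at 0.90 (SE 0.93) and hoxb6a at 0.53 (SE 0.97). The remaining group 6 gene, hoxc6b, was the one later gene below 0, at -0.56 (SE 0.74) with a base mean of 4.86 in the authors' deposited table. Group 7 is represented by hoxb7a, at 1.11 (SE 1.42) in the authors' deposited table. Group 8 genes were at 0.85 (SE 1.26) for hoxb8a, 0.99 (SE 0.65) for hoxb8b and 1.40 (SE 1.26) for hoxc8a in the authors' deposited table. The lowest unadjusted p of any Hox gene was that of hoxb8b, 0.132.

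Across the 24 genes the paralogue group number and the log2 fold change had a Spearman rank correlation of 0.678, given as a description, since all genes share the same 20 brain samples. With the 2 genes of base mean under 10 left out (hoxc6b and hoxc8a), it was 0.773. The number of the paralogue group and the base mean had a rank correlation of -0.299. With the SE of the log2 fold change, the group number had a rank correlation of 0.721, so the larger values of later groups were also the less precise. Whether groups 5 to 8 differ from groups 1 to 4 in their response to genotype could not be tested from the deposited tables.

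The second feature of the Hox genes in brain was the size of their SEs, which stand for the spread between samples in the authors' model. Their median SE was 0.73, against 0.23 over genes with a base mean in the same range and 0.13 over all genes. Since an SE falls with read number, each gene was ranked among the genes of the brain table within a factor of 2 of its base mean. Of 24 Hox genes, 23 had an SE above the middle of that ranking and 14 an SE higher than 95% of it. In groups 5 to 8 this held for 10 of 12 genes, the exceptions being hoxc6b and hoxb8b, the genes with 2 of the 3 lowest base means. In groups 1 to 4 it held for 4 of 12, which were hoxb1b, hoxb3a, hoxc3a and hoxc4a. The rank was 99.6% for hoxb5a, 99.5% for hoxb8a and 99.4% for hoxb5b, against 45.3% for hoxa2b and 70.2% for hoxb2a.

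**Figure D3:**
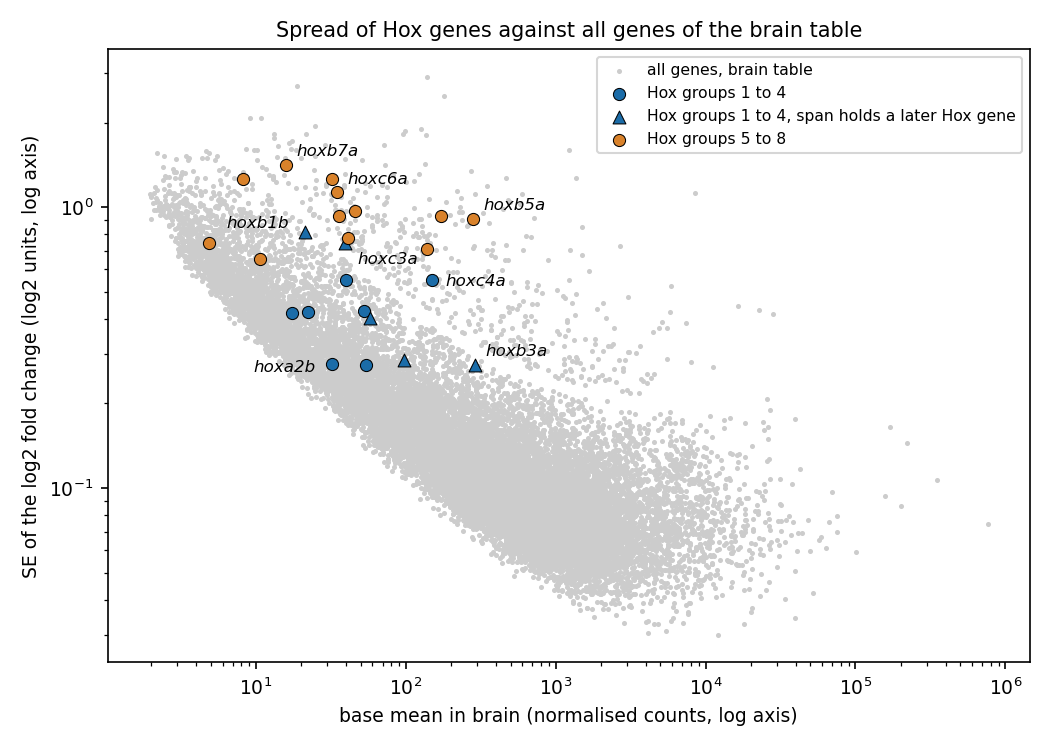
SE of the log2 fold change against base mean in brain, both on log axes, for all 19300 genes (grey), Hox groups 1 to 4 (blue) and 5 to 8 (orange). Triangles are genes whose RefSeq span overlaps a Hox gene of a later group: 10 of the 12 orange points lie along the upper edge of the grey cloud, hoxb5a at an SE of 0.91, hoxc6b and hoxb8b lie lower in it, and hoxa2b lies inside it at 0.28.

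The SEs were also turned into an approximate coefficient of variation (CV) between samples of 1 genotype beyond counting error, with 10 samples of equal weight on each side. The CV was 39.1% for hoxa2b, 40.1% for hoxb2a, 42.2% for hoxb3a and 43.2% for hoxd3a. It was 141% for hoxb5a, 144% for hoxb5b, 174% for hoxc6a, 195% for hoxb8a and 218% for hoxb7a. The median was 61.7% in groups 1 to 4 and 144% in groups 5 to 8, against 33.3% over genes with base means in the Hox range. These CVs assume equal means in both genotypes and no covariate, since no source used here states the authors' model formula. They were derived from SEs of a fitted model, and the spread of the samples themselves could not be measured. The SE sets how large a change could have been called. With the smallest test statistic that passed in brain, 3.56, hoxa2b would have needed a fold of 1.98, the median gene of groups 5 to 8 a fold of 9.98 and hoxb7a a fold of 33.2.

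Hox genes lie close together and some of their annotated spans overlap, so reads of one can be counted for another. In GRCz12tu the span of hoxb3a overlaps hoxb4a, hoxb5a and hoxb6a, and that of hoxc3a overlaps 5 genes from hoxc4a to hoxc9a. The span of hoxb1b overlaps hoxb5b and hoxb6b, that of hoxa3a overlaps hoxa4a and hoxa5a, and that of hoxd3a overlaps hoxd4a. No source used here states how the authors treated shared reads. The values of these 5 genes, and of the genes that their spans overlap, are uncertain to that extent. The early genes with the widest errors, hoxb1b (SE 0.82) and hoxc3a (SE 0.75) in the authors' deposited table, are among the 5. The part of shared reads in their spread was not tested. Without the 5 genes, the median log2 fold change of groups 1 to 4 was 0.014 over 7 genes in place of 0.12. That of groups 5 to 8 stayed the same, since none of its members overlaps a Hox gene of a later group and none was left out. Most of them have a span that overlaps that of an early gene, so shared reads could touch their values too. The rank correlation between paralogue group and log2 fold change was then 0.768 over 19 genes.

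The listed genes next to the clusters mostly did not share the high rank in SE. The brain table listed 14 other genes within 50 kb of a Hox cluster in GRCz12tu. Their log2 fold changes ran from -0.40 to 0.35 with a median of -0.09 and a median SE of 0.17, and 9 of the 14 were below 0. None was called, against 0.736% of all genes. At an unadjusted p below 0.05 there were 2 (14.3% of 14, against 8.62% of all genes). These were hibadhb and ttll6, both below 0 and named after their values were seen. The 14 neighbours had more reads, with a median base mean of 133 against 39.5 for the Hox genes. Among genes of similar base mean, 1 of the 14 exceeded 95% in SE (tax1bp1b, 99.8%, named after its value was seen) and 5 lay above the middle, against 14 and 23 of 24 Hox genes. This contrast covers the clusters unevenly: no neighbour of the ca cluster was listed, and only atp5mc1 beside the ba cluster. The ca and ba clusters gave 6 and 7 of the 24 Hox genes. Most of the neighbours lie beside the ab, cb and da clusters, where no listed Hox gene exceeded 95% in SE. The ranks there were 45.3% for hoxa2b, 68.4% for hoxc6b, 87.5% for hoxd3a and 74.1% for hoxd4a. The contrast is therefore largely one between different clusters. The neighbours include the even-skipped homeobox genes evx1 and evx2, which sit beyond group 13 at the posterior ends of the aa and da clusters and mark spinal interneurons. Both were listed in brain although the neighbouring Hox genes of groups 9 to 13 have no brain value. The authors' deposited table gives evx1 a base mean of 10.95 and a log2 fold change of 0.23 (SE 0.39), and evx2 a base mean of 80.4 and -0.11 (SE 0.20). Neither has a value in the eye table. No Hox cluster lies on chromosome 13, which holds cyp1b1 in GRCz12tu.

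Genes that work with Hox proteins had a median log2 fold change near 0 in brain. Of 14 Pbx, Meis and Pknox cofactor genes listed in brain, 7 were above 0, against 49.5% of all genes. Their median log2 fold change was -0.014. None was called, against 0.736% of all genes, and none had an unadjusted p below 0.05, against 8.62% of all genes. The cofactors with the most reads, meis2a and pbx3b, were at -0.08 (SE 0.06) and -0.03 (SE 0.08) in the authors' deposited table. The lowest value of the list, chosen after the values were seen, was that of meis1a, to which the authors' deposited table gives -0.65 (SE 0.44, base mean 26.5). Of 32 genes of retinoic acid handling and of Hox cluster regulation, 12 were above 0, none was called, and the median was -0.03. In that list the authors' deposited table has kmt2a, a histone methyltransferase that maintains Hox expression, at 0.07 (SE 0.08), and crabp1a, a retinoic acid carrier, at -0.17 (SE 0.14). The 4 with an unadjusted p below 0.05 (12.5% of 32, against 8.62% of all genes), named after their values were seen, were all below 0. They were aldh1a3, which makes retinoic acid, at -0.39 (SE 0.17), crabp2a at -0.56 (SE 0.23), the hindbrain segment gene egr2b at -0.44 (SE 0.18) and the Polycomb methyltransferase gene ezh2 at -0.19 (SE 0.09) in the authors' deposited table. Their adjusted p was 0.359 or higher.

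Other gene lists named after brain regions were set beside the Hox values. Their members need not be confined to a single region, and 32 genes of the hindbrain and spinal cord list were listed in eye. Of 36 hindbrain and spinal cord genes other than Hox, 27 were above 0 in brain, against 49.5% of all genes. None was called, against 0.736% of all genes, and the list median was 0.07. By the authors' deposited table the 2 with the most reads, uts1 and gata3, were at -0.04 (SE 0.10) and -0.08 (SE 0.13). The 5 with an unadjusted p below 0.05 (13.9% of 36, against 8.62% of all genes), named after their values were seen, were all above 0. In the authors' deposited table they include mnx1, a motor neuron homeobox gene, at 2.07 (SE 0.93, adjusted p = 0.474, base mean 5.19) and slc6a5, the glycine transporter gene of hindbrain and spinal inhibitory neurons, at 0.58 (SE 0.29, adjusted p = 0.571). The others in the authors' deposited table were pax5 at 0.29 (SE 0.14), pax8 at 0.51 (SE 0.22) and the acetylcholine synthesis gene chata at 0.47 (SE 0.16). The adjusted p of chata, 0.181, was the lowest of the list. It lies on the chromosome of cyp1b1, and without the members on that chromosome 24 of 32 were above 0. Of the 36, 9 were below 0. The lowest, picked out after their values were seen, were tbx20 at -0.53 (SE 0.34) and lhx4 at -0.37 (SE 0.37) in the authors' deposited table. In SE, 5 of the 36 exceeded 95% of genes of similar base mean.

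Of 31 forebrain and midbrain genes, 22 were below 0 in brain and 9 above 0, against 49.5% of all genes above 0. None was called, against 0.736% of all genes, and the list median was -0.09. The 2 with the most reads, bcl11ba and neurod6a, were at -0.02 (SE 0.09) and -0.09 (SE 0.29) in the authors' deposited table. The 3 with an unadjusted p below 0.05 (9.68% of 31, against 8.62% of all genes), named after their values were seen, were emx2, otx2b and tal2, all below 0. Of these, emx2 lies on the chromosome of cyp1b1. In SE, 14 of 31 exceeded 95% of genes of similar base mean. The 4 highest in that ranking were telencephalic transcription factor genes, picked out after their values were seen. The SE was 0.78 for foxg1a, 0.91 for emx3, 0.70 for tbr1b and 0.55 for eomesa in the authors' deposited table, and each exceeded at least 99.1% of genes of similar base mean. Their log2 fold changes lay between -0.38 and -0.20. Other telencephalic genes of the list did otherwise in SE or in sign. The authors' deposited table gives emx2 an SE of 0.08, higher than 29.6% of genes of similar base mean. It gives emx1 a log2 fold change of 0.17 (SE 0.55), with an SE higher than 96.9% of genes of similar base mean. Like emx2, emx1 lies on the chromosome of cyp1b1. Of 21 cerebellar genes, 8 were above 0, none was called and the median was -0.05, with zic1 at -0.11 (SE 0.09) and neurod1 at -0.06 (SE 0.08) in the authors' deposited table. None of the 21 exceeded 95% of genes of similar base mean in SE.

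**Figure D4:**
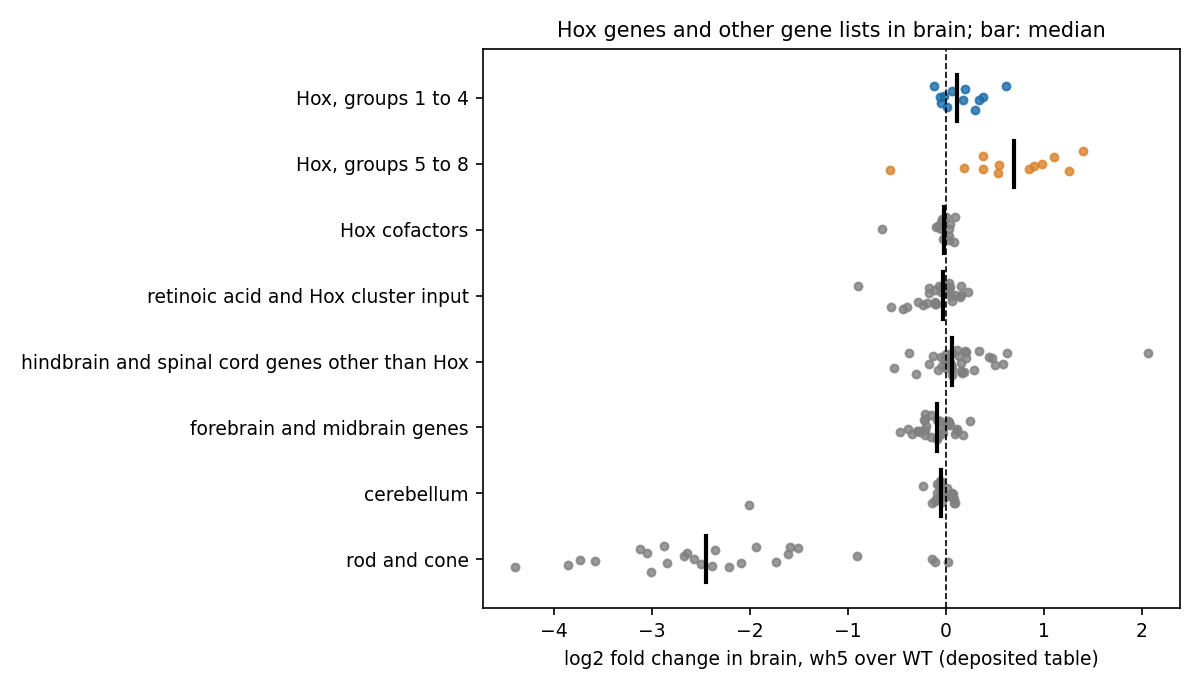
Log2 fold change of wh5 over WT in brain for Hox genes of groups 1 to 4 and 5 to 8 and for 6 other lists. Each point is 1 gene and the black bar is the median of its list: 0.12 and 0.70 for the Hox groups, -0.09 for forebrain and midbrain genes and -2.44 for rod and cone genes.

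Lists of photoreceptor, myelin and other tissue genes were also examined in the brain samples, and where their transcripts came from was not tested. Of 26 rod and cone genes, 25 were below 0 and 5 of them (gnat2, arr3b, grk7a, opn1sw2 and guca1d) were called, against 0.736% of all genes, with a median of -2.44. In SE, 21 of 26 exceeded 95% of genes of similar base mean. Surface epithelium genes had 16 of 20 values above 0, against 49.5% of all genes, and a median of 0.38. In the authors' deposited table krt5 was at 0.85 (SE 0.45) and krt94 at -0.09 (SE 0.16). Myelin genes had a median of -0.07 over 13 genes, skeletal muscle genes -0.08 over 24, blood genes -0.06 over 13 and connective tissue genes -0.04 over 17, none called. In SE, 8 of 13 blood genes and 8 of 20 surface epithelium genes exceeded 95% of genes of similar base mean. The counts were 3 of 13 for myelin, 4 of 24 for skeletal muscle and 1 of 17 for connective tissue. A high rank in SE was thus not particular to Hox genes. The part of the tissues and cells behind these lists, and of where each brain was cut from the spinal cord, in the Hox values was not tested. The tables tie no value to a single brain.

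In eye, 2 Hox genes were listed, and neither passed. The authors' deposited table gives hoxb8b, a group 8 gene of the bb cluster, a log2 fold change of 0.91 at a base mean of 5.39 (SE 0.79, adjusted p = 0.658). The second gene, hoxa13b of group 13, is known in zebrafish for its part in the distal fin, and the authors' deposited table gives it a log2 fold change of 0.84 at a base mean of 4.35 (SE 0.91, adjusted p = 0.735). Their 95% intervals were folds of 0.638 to 5.52 and 0.519 to 6.21. The count was 0 of 2, against 1.67% of the 19429 genes of the eye table, and at an unadjusted p below 0.05 also 0 of 2, against 14.2%. Both values lay above 0, as did 51.9% of all genes. With the smallest test statistic that passed in eye, a call would have needed a fold of 6.29 for hoxb8b and 8.29 for hoxa13b.

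For hoxb8b the organs could be set side by side. Its base mean was 10.7 in brain and 5.39 in eye in the authors' deposited tables, which were normalised separately. Per 1000000 of the base means summed over the 18275 genes in both tables, this is 0.476 in brain and 0.218 in eye, a ratio of 2.18 with no error that can be given. The other 23 Hox genes of the brain table have no eye value, hoxb3a and hoxb5a with base means of 289.5 and 281 in brain included. The log2 fold change of wh5 over WT for hoxb8b was 0.99 in brain and 0.91 in eye, a difference, brain minus eye, of 0.08 (SE 1.03, 95% interval -1.94 to 2.09). The adjusted p of the difference was 0.993. The 0 of 1 called compares with 0.0821% of the genes in both tables.

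Unlike the Hox genes themselves, all 14 cofactor genes were listed in both organs. The authors' deposited tables give the 2 with the most reads in brain, meis2a and pbx3b, base means of 3650 and 2709 in brain and 991 and 949 in eye. In eye, 4 of 14 cofactors were above 0, against 51.9% of all eye genes, and their median was -0.08. None was called, against 1.67% of all eye genes. The 2 with an unadjusted p below 0.05 (14.3% of 14, against 14.2% of all eye genes), named after their values were seen, were meis1b at 0.16 (SE 0.07) and pknox1.2 at -0.23 (SE 0.08) in the authors' deposited table, of which meis1b lies on the chromosome of cyp1b1. Of 29 genes of retinoic acid handling and of Hox cluster regulation in eye, 10 were above 0, none was called and the median was -0.06.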

How the data were processed

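Poly(A) RNA of 40 samples was sequenced by the authors, per the labels. Per the submitters' processing notes, DESeq2 1.32.0, STAR and fastp were used with the genome build GRCz11. No parameters are given there. The authors deposited 1 table per organ. Per the file headers it holds a log2 fold change of wh5 over WT and its SE (log2 units, the base taken from the tool named), the base mean (a signal, the mean of normalised counts), a test statistic (a score, the fold change over its SE), a p-value and its adjusted form. Benjamini-Hochberg adjustment over the listed genes gave the deposited adjusted p again, with relative differences of at most 0.00453. Depth is unknown.

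A gene was called at a deposited adjusted p below 0.05, with no refit. Intervals are the value plus or minus the normal 95% quantile times the SE. Organs were compared by the difference of their log2 fold changes divided by its SE (tables taken as independent), with a two-sided normal p adjusted over all genes in both tables. The CV between samples was derived from the SE and base mean with 10 samples per genotype. The steps for calls and for the difference between organs were tested on simulated data. For the CV, the simulated SE was computed from the known CV by the same formula. That step therefore checked the arithmetic only, not the CVs given here. Chromosomes and spans come from the RefSeq table of GRCz12tu, which is not the authors' build, so no coordinate is given and no transcript length was at hand. Named genes are any Hox gene, and of 11 other lists the called members or else the 2 with the most reads, with exceptions stated; 1 called gene of these lists in eye is not reported here. The members and lists were chosen with earlier results of these data known. Computations used scipy 1.17.1, numpy 2.4.6, pandas 2.3.3 and matplotlib 3.10.9 in Python 3.11.15.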

Additional observations from a re-analysis of the deposited data

How the results depend on the processing

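No Hox gene was called in either organ when an empirical null was used for the p-values, without the chromosome of cyp1b1, or at an adjusted p below 0.1, nor in brain when adjusted over the genes whose base mean reached 10. The lowest adjusted p of a Hox gene under these 4 alternatives ran from 0.731 to 0.963 in brain, and under the 3 that could be run in eye from 0.658 to 0.995. Both eye genes have a base mean under 10, so that filter gave no value in eye or for the difference between organs. The brain median of 0.36 was 0.36 with the filter and 0.36 relative to the median of all genes. It was 0.38 without the genes whose span overlaps a Hox gene of a later group, a choice made after seeing the data. The log2 ratio of hoxb8b, brain over eye, was 1.13 per 1000000, 0.93 by the median ratio and 0.99 unscaled. No paired analysis was possible because the deposited tables hold no value of a single sample, and for the same reason no sample was left out and no count model, other normalisation or filter on counts was run. The wide SEs of the later Hox groups limit what could be called there.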

Other observations

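Among the lists set beside the Hox genes, a called member outside the photoreceptor genes of brain was found in eye, in the list of hindbrain and spinal cord genes, whose members include genes that retinal neurons also use. In the authors' deposited table chata, which makes acetylcholine in motor neurons and in starburst amacrine cells, rose by 0.55 log2 units (SE 0.10, adjusted p = 2.28e-05). Of all eye genes 1.67% were called. Other cholinergic genes of the list were below 0 and not called. They were slc18a3a at -0.19 (SE 0.08) and slc5a7a at -0.24 (SE 0.13) in the authors' deposited table. Of 32 members in eye 9 were above 0, against 51.9% of all eye genes. Both chata and slc18a3a lie on the chromosome of cyp1b1. Forebrain and midbrain genes had a median of -0.02 over 28 in eye, cerebellar genes 0.03 over 19, myelin genes -0.35 over 12, skeletal muscle genes -0.04 over 30, blood genes 0.10 over 14, connective tissue genes -0.12 over 18, surface epithelium genes 0.32 over 22 and rod and cone genes 0.11 over 29, none of these lists with a called member.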
